A study of Mus musculus with 4 samples.

Results

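The genes described here are 7 members of the piRNA pathway, Piwil2, Mael, Mov10l1, Asz1, Gtsf1, Tdrd1 and Tdrd9, listed by name and all present among the 19321 genes of the table. They were followed in single-cell RNA-seq of whole gonads from XX embryos of the C57BL/6 mouse strain at 4 stages a day apart, embryonic day E11.5, then E12.5, then E13.5 and last E14.5. The gonads were dissociated with an enzyme and loaded on the 10x Chromium system, which reads the 3′ end of each transcript and counts molecules by unique molecular identifiers (UMIs). No mutant, transgene or treatment is named in the labels. Each stage was 1 library, so no difference has a replicate check, the stage and the library cannot be told apart, and every interval is a 95% interval for counting error only. A cell was called a germ cell when at least 2 of the 4 genes Dazl, Ddx4, Dnd1 and Dppa5a were above 0. In stage order this gave 360, 746, 871 and 2524 germ cells, beside 4440, 3991, 3864 and 2169 other cells. The labels do not say how many embryos a library pooled.

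piRNAs are small RNAs of the germline that guide PIWI proteins to transposon transcripts and, in the fetal male germline, to transposon DNA. Precursors are handed to mitochondria and to the granules called nuage, where Tudor-domain proteins and helicases help cut, load and amplify the piRNAs. The pathway is known above all from the testis, and XX germ cells of these stages are passing from the mitotic oogonial state into meiotic prophase.

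The 7 genes lie on 6 chromosomes in GRCm38 (GENCODE vM21): Mael on chromosome 1 (166201201 to 166238747, minus strand), Asz1 on 6 (18050964 to 18109061, minus), Tdrd9 on 12 (111971559 to 112068854, plus), Piwil2 on 14 (70372477 to 70429383, minus), Mov10l1 on 15 (88982909 to 89055152, plus), Gtsf1 on 15 (103402405 to 103430470, minus) and Tdrd1 on 19 (56826209 to 56870012, plus). All are annotated as protein-coding. Promoter sequence of 6 of them came from RefSeq (GRCm38.p6), as the 250 bases before each annotated start. The sequences below are shown because 4 of these 6 genes held the E-box CACGTG, the palindrome read by basic helix-loop-helix factors such as MAX. By window it was 5 of their 8, the first 2 starts of Tdrd1 sharing 1 site. Of the 32851 mouse promoter windows of that length, 6.02% held it. The capitals in the Mael promoter, chr1:166238745-166238994 on the minus strand, mark the E-box and, nearer the start, TCCCGC, a motif of E2F factors.
Mael: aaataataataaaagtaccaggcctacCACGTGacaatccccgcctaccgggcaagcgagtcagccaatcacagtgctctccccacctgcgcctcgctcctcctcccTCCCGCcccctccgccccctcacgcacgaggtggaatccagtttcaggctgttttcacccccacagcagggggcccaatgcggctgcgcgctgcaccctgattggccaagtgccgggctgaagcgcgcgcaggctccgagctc
The other E-boxes, in capitals within short windows, lay 240 bases before the start of Mov10l1 (chr15:88982744-88982765), 159 and 89 bases before that of Tdrd9 (chr12:111971382-111971411 and chr12:111971452-111971481) and 5 bases before the first of 3 annotated starts of Tdrd1 (chr19:56826186-56826208), all on the plus strand. These distances are from the RefSeq starts. For Mov10l1 the 250 bases before that start, which end at 88982993, run past the GENCODE start of 88982909.
Mov10l1: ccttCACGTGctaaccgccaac
Tdrd9, distal: ggtctccataaaCACGTGcctgtccaggtc
Tdrd9, proximal: gcacgaggctccCACGTGcatgcagggcct
Tdrd1: tggggctgcgcgCACGTGggagt
Asz1 and Gtsf1 held no CACGTG in the window. TCCCGC, searched on both strands, was found in Mael alone among the 6 genes and in 16.9% of all windows. CNCCTCAG, the motif described for the meiotic factor STRA8, was found on either strand in 0 of the 6 genes and in 6.42% of all windows. A match describes letters and not a bound site, and the E-box share of these 6 genes was not tested.

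Levels are UMIs of a gene scaled to a fixed total (counts per 1e+06 UMIs, CPM) summed over the germ cells of a library. They are compared between cells and stages, and not between genes. In germ cells the level of 6 of the 7 genes was higher at each later stage, Asz1 being the exception, though the intervals of E11.5 and E12.5 overlapped for Gtsf1, Tdrd1 and Tdrd9, and those of E12.5 and E13.5 for Gtsf1 and Tdrd9. A gene was counted as changed when its CPM differed by at least 2-fold with an interval that excluded no change, 50 or more UMIs over both groups and at least 20 CPM in the higher group. From E11.5 to E14.5, 5 members met these minimums and all 5 were counted as higher. Over the 5839 genes tested, 19.0% were counted higher and 8.29% lower. Every member was under 20 CPM at E11.5, so a member could meet the minimums only through E14.5, none could have been counted lower, and nothing is read from these counts against those shares. The median log2 change of all 7 members, with no minimum applied, was 2.96, beside 0.22 over the genes tested. When the libraries were scaled by the median of gene ratios, all changes between these 2 stages were lower by 0.29 on the log2 scale, and the same call was made for 5 members. That scaling turned the whole-table split from 1111 higher and 484 lower into 761 and 802, so levels below are best read against the other genes.

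Piwil2, which encodes a PIWI protein that carries piRNAs in fetal germ cells, had 10.7, 17.8, 24.3 and 32.1 CPM in stage order. The intervals of these 4 levels did not overlap, and it gained about the same CPM at each step. Over all 4 stages its log2 change was 1.58 (1.30 to 1.88), or 1.30 on the median-of-ratios scale, and none of its single steps reached 2-fold.

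Mael, an RNA-binding nuage protein needed for transposon silencing, had 15.8, 35.1, 90.0 and 224 CPM over the 4 stages. It was the one member that more than doubled at every step, with log2 changes of 1.15 (0.90 to 1.41), 1.36 (1.23 to 1.48) and 1.32 (1.25 to 1.39), and it rose by 3.83 (3.60 to 4.06) in all. Mov10l1, the helicase that binds piRNA precursors, had 13.3, 25.6, 33.1 and 103 CPM. Its rise fell mostly in the last step, with a log2 change of 1.64 (1.53 to 1.76) from E13.5 to E14.5 after 0.37 (0.21 to 0.54) in the step before.

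Asz1, a scaffold that ties nuage to the outer membrane of mitochondria, went up, down and up again, with 14.7, 32.8, 23.4 and 48.9 CPM. The step from E12.5 to E13.5 was a log2 change of -0.49 (-0.66 to -0.32), which is under the 2-fold minimum though its interval excluded 0. At E14.5 it was above all earlier stages, 1.73 (1.49 to 1.98) over E11.5. Gtsf1, a small zinc-finger protein that helps PIWI proteins cut their targets, stayed low at 3.44, 5.23 and 6.28 CPM, levels whose intervals overlapped from stage to stage, and then reached 25.3. Its log2 change of 2.01 (1.75 to 2.28) in the last step was the only counted change between neighbouring stages that reached 4-fold, and it stood at 1.89 on the median-of-ratios scale.

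The Tudor-domain proteins were the least counted. Tdrd1, which binds methylated arginines of PIWI proteins, had 0.982, 1.39, 4.12 and 8.69 CPM. Tdrd9, a Tudor-domain helicase, had 0.196, 0.240, 0.890 and 3.93 CPM, from 2, 5, 19 and 167 UMIs. Neither reached 20 CPM, so neither entered the call. Their log2 ratios of E14.5 to E11.5 were 3.15 (2.25 to 4.22) and 4.32 (2.45 to 7.38), the second resting on those 2 UMIs.

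**Figure D1:**
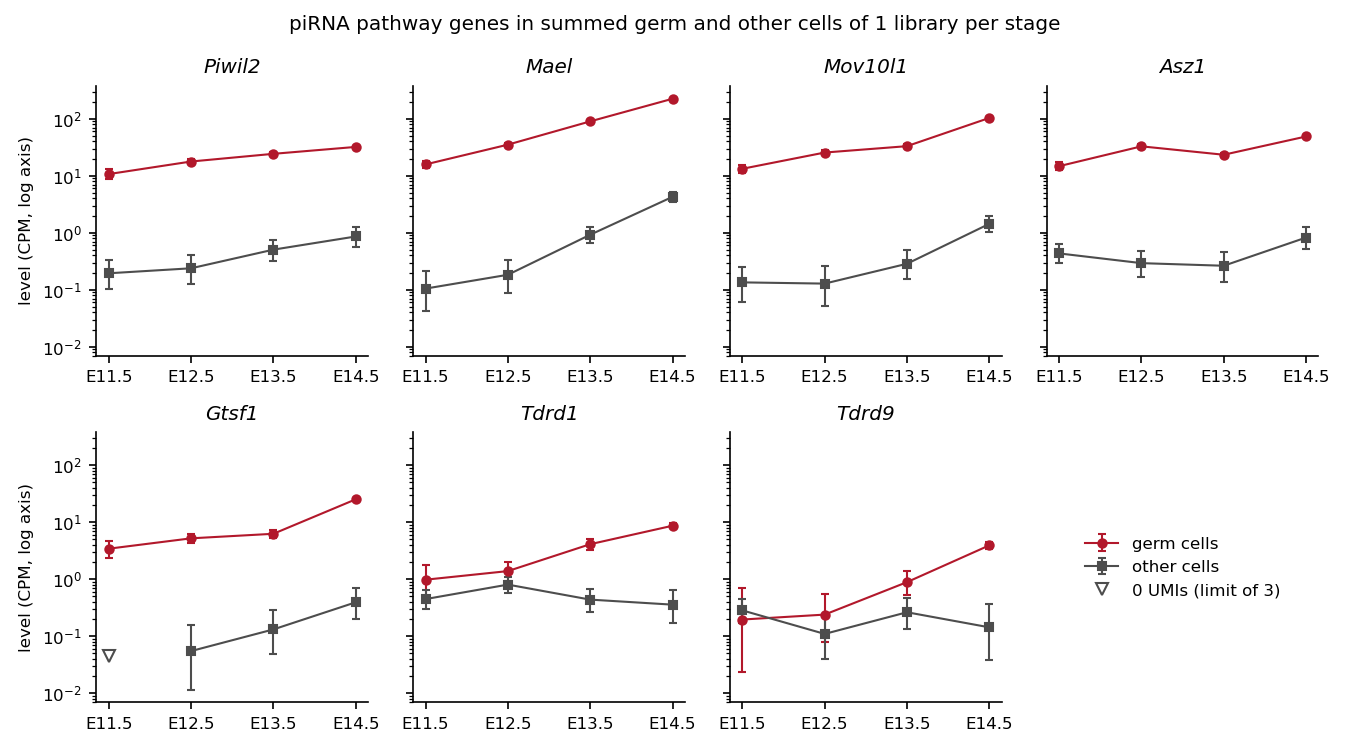
Level of each gene in CPM (log axis) at each stage, in summed germ cells (red circles) and other cells (grey squares) of 1 library per stage, with 95% Poisson intervals; the open triangle marks 0 UMIs, drawn at the level of 3 UMIs. Mael in germ cells goes from 15.8 to 224 CPM, Asz1 dips at E13.5, and Tdrd1 and Tdrd9 are close to the other cells at E11.5.

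By step, Mael and Asz1 were counted as higher from E11.5 to E12.5, 2 of 3 members tested, all of which met the minimums through E12.5 alone, where 1.95% of all genes tested were counted higher. From E12.5 to E13.5 it was Mael alone of 4, against 0.768%. From E13.5 to E14.5 it was Mael, Mov10l1, Asz1 and Gtsf1, 4 of 5, against 7.29%, Gtsf1 meeting the minimums through E14.5 alone. The first step depended on how germ cells were defined: with at least 3 of the 4 markers Asz1 stayed above 2-fold (log2 1.03) and Mael did not (0.94), and with all 4 markers neither did (0.93 and 0.79). In the last step Asz1 stood at 0.99 with 3 markers and at 0.94 on the median-of-ratios scale, both just under 2-fold. With all 4 markers the last step was 0.92 for Mael, 1.28 for Mov10l1 and 1.5 for Gtsf1, and Mov10l1 alone was counted, Gtsf1 being under the 20 CPM minimum. On the median-of-ratios scale the split of all genes into higher and lower went from 40 and 21 to 23 and 47 in the middle step, and from 414 and 114 to 314 and 196 in the last.

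**Figure D2:**
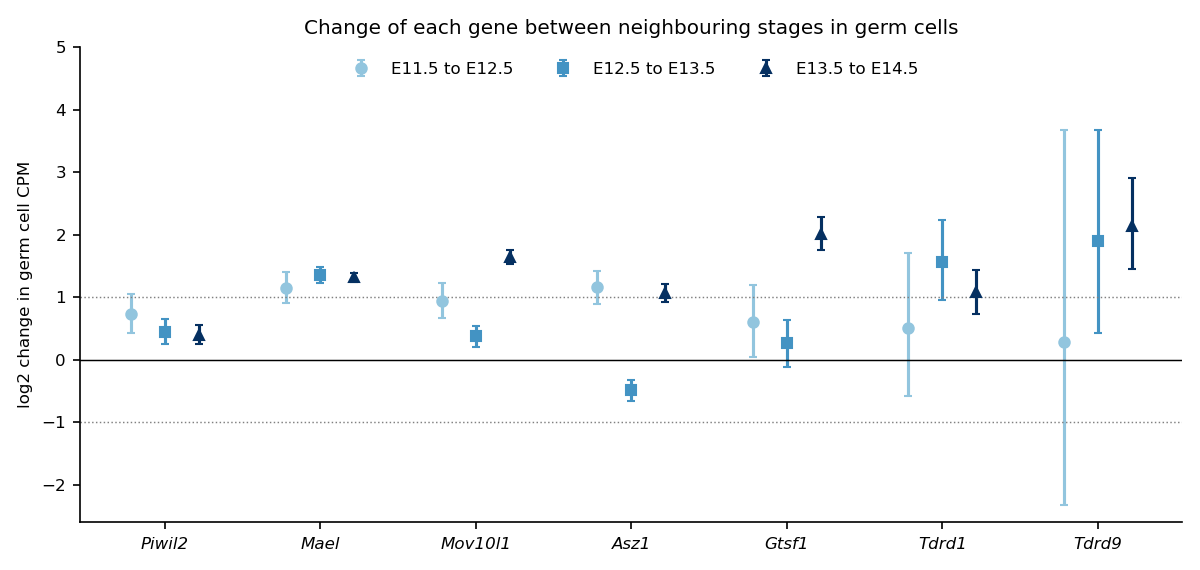
Log2 change in germ cell CPM of each gene between neighbouring stages, with exact binomial 95% intervals; dotted lines mark 2-fold. Mael lies above 1 in all 3 steps, Asz1 is at -0.49 from E12.5 to E13.5, and Gtsf1 is at 2.01 in the last step.

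The germ cells as defined were not uniform. Cells with exactly 2 markers numbered 142, 106, 124 and 211 over the stages. In those of E13.5, Pou5f1, a pluripotency factor kept by germ cells and not used by the rule, was at 18.2 CPM, beside 154 and 162 CPM in cells with 3 and with 4 markers. At least 3 of 7 supporting-cell markers were detected in 52.8% of the E12.5 and 56.5% of the E13.5 cells with 2 markers, and in 1.48% and 5.30% of those with 3. The members were low there too, Mael at 2.73 CPM against 90.9 and 102 in the E13.5 cells with 3 and 4 markers, while at E14.5 the 2-marker cells had 118 CPM beside 300.1 and 193. At E11.5 the 2-marker cells made up 39.4% of the germ cells, the largest share of any stage, which bears on every comparison with E11.5. With at least 3 markers the log2 ratios of E14.5 to E11.5 were 3.53 for Mael, 2.81 for Mov10l1, 2.47 for Gtsf1, 1.55 for Asz1 and 1.35 for Piwil2, and all 5 remained counted as higher. Of the rule's own genes, Ddx4, a helicase of the same pathway, and Dazl also rose. Dppa5a fell from 2623 CPM at E11.5 to 732 at E14.5, and Dnd1 from 143 to 92.2, the latter by under 2-fold. The rule itself thus leans on genes that changed in both directions. Without Ddx4 in the rule the Mael ratio was 3.8. Red-cell transcripts moved with stage as well: at least 3 of 7 erythroid markers were detected in 9.17%, 4.29%, 18.5% and 58.0% of germ cells after drawing 5000 UMIs per cell. Without those cells the changes from E11.5 to E14.5 were 3.84 for Mael, 2.93 for Mov10l1 and 2.72 for Gtsf1.

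Detection per cell followed the levels. Each cell was thinned to 5000 UMIs, since median depth fell from 28832 UMIs per germ cell at E11.5 to 15465 at E14.5. A Mael UMI was then found in 6.94%, 14.3%, 32.0% and 62.5% of germ cells, and a Mov10l1 UMI in 3.89%, 10.6%, 15.4% and 40.3%. Piwil2 was found in 5% and 15.0% of germ cells at the first and the last stage, Asz1 in 6.67% and 21.4%, Gtsf1 in 2.22% and 12.8%, and Tdrd1 in 0.833% and 4%. For Tdrd9 it was 0 of 360 cells in the first (3 counts would be 0.833%, and the Clopper-Pearson upper limit was 1.02%) and 2.10% in the last. Without thinning the Mael shares were 28.6%, 49.5%, 67.3% and 88.8%. At least 1 of the 7 genes was detected in 22.5%, 40.1%, 52.5% and 82.3% of thinned germ cells, and at least 3 in 0%, 0.670%, 4.48% and 19.1%. The spread of Mael over E14.5 germ cells, as variance over mean of the thinned counts, was 1.41, where counting alone gives about 1. Stra8 gave 3.30, at a thinned mean of 4.77 UMIs per cell against 1.22 for Mael. Extra spread raises this measure more at a higher mean, so the 2 values do not rank the genes by spread.

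**Figure D3:**
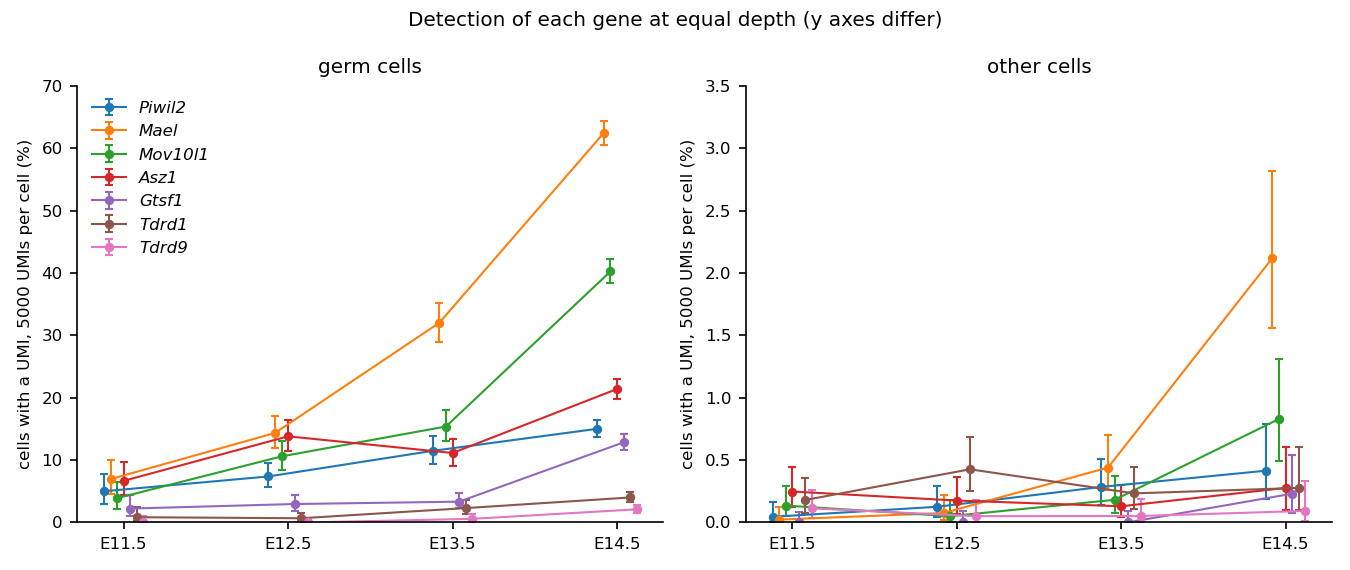
Percent of germ cells (left) and other cells (right) with at least 1 UMI of each gene after thinning every cell to 5000 UMIs, with Clopper-Pearson 95% intervals; the y axes differ. Mael reaches 62.5% of germ cells and 2.12% of other cells at E14.5.

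Within a library the members were compared between germ cells with and without meiotic transcripts in the thinned counts. Stra8 is the gene that starts meiosis, and Sycp3 encodes a core protein of the synaptonemal complex. At E13.5 the 237 germ cells with Stra8 had 146 CPM of Mael against 70.6 in the 634 without it, a log2 difference of 1.05 (0.92 to 1.18). Mael was the 1 of 4 tested members counted, against 0.692% of all genes, and 0 were lower, against 2.40%. Tdrd1 and Tdrd9 were too low for the call, at 10.0 against 2.08 CPM and 2.74 against 0.252 CPM, with log2 ratios of 2.27 (1.62 to 2.94) and 3.44 (1.79 to 5.49). Asz1 hardly differed, at 26.1 and 22.4 CPM, with a log2 ratio of 0.22 (-0.07 to 0.50). Cells with exactly 2 markers were 19.2% of the cells without Stra8 and 0.844% of those with it. When only cells with at least 3 markers were taken, Mael stood at 0.86 and was no longer counted, while Tdrd1 stood at 2.12 (1.47 to 2.80).

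At E14.5 the 2124 germ cells with Stra8 exceeded the 400 without it by log2 1.48 (1.37 to 1.60) for Mael, 1.94 (1.56 to 2.34) for Gtsf1, 1.14 (0.88 to 1.42) for Piwil2 and 1.08 (0.93 to 1.22) for Mov10l1. These were 4 of 5 members tested, against 5.82% of all genes, and 0 were lower, against 7.11%. Piwil2 (16.2 CPM without Stra8) and Gtsf1 (7.63 CPM) met the 20 CPM minimum only in the cells with Stra8 and could not have been counted lower. Mael and Mov10l1 met it in both classes. Here the 2-marker cells were 30.8% of the cells without Stra8 and 4.14% of those with it. Among cells with at least 3 markers, Mael at 1.10 and Gtsf1 at 1.55 were still counted, and Piwil2 at 0.76 and Mov10l1 at 0.69 were not.

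Gtsf1 was the member that differed most between the Sycp3 classes of E14.5. It had 11.2 CPM in the 988 germ cells without Sycp3, 28.1 in the 616 with Sycp3 and Pou5f1, and 42.5 in the 920 with Sycp3 and without Pou5f1. The intervals of these levels did not overlap, nor did those of Mael (144, 251 and 315 CPM) and Mov10l1 (74.9, 109 and 138 CPM). Asz1 had 37.8, 57.3 and 58.1 CPM, the last 2 within each other's intervals, and Piwil2 had 26.3, 34.5 and 38.2. Against the cells without Sycp3, the Sycp3 cells without Pou5f1 were counted higher for Mael (log2 1.13) and Gtsf1 (1.93), 2 of 5 members and 7.80% of all genes, with 0 members and 4.69% of all genes lower. The Sycp3 cells with Pou5f1 were counted higher for Gtsf1 (1.33) alone, 1 of 5 members and 0.952% of all genes, with 0 members and 1.74% of all genes lower. In both comparisons Gtsf1 met the 20 CPM minimum through the Sycp3 cells alone, so it could not have been counted lower. With at least 3 markers Gtsf1 kept both calls, at 1.77 and 1.18, and Mael at 0.96 lost its call.

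**Figure D4:**
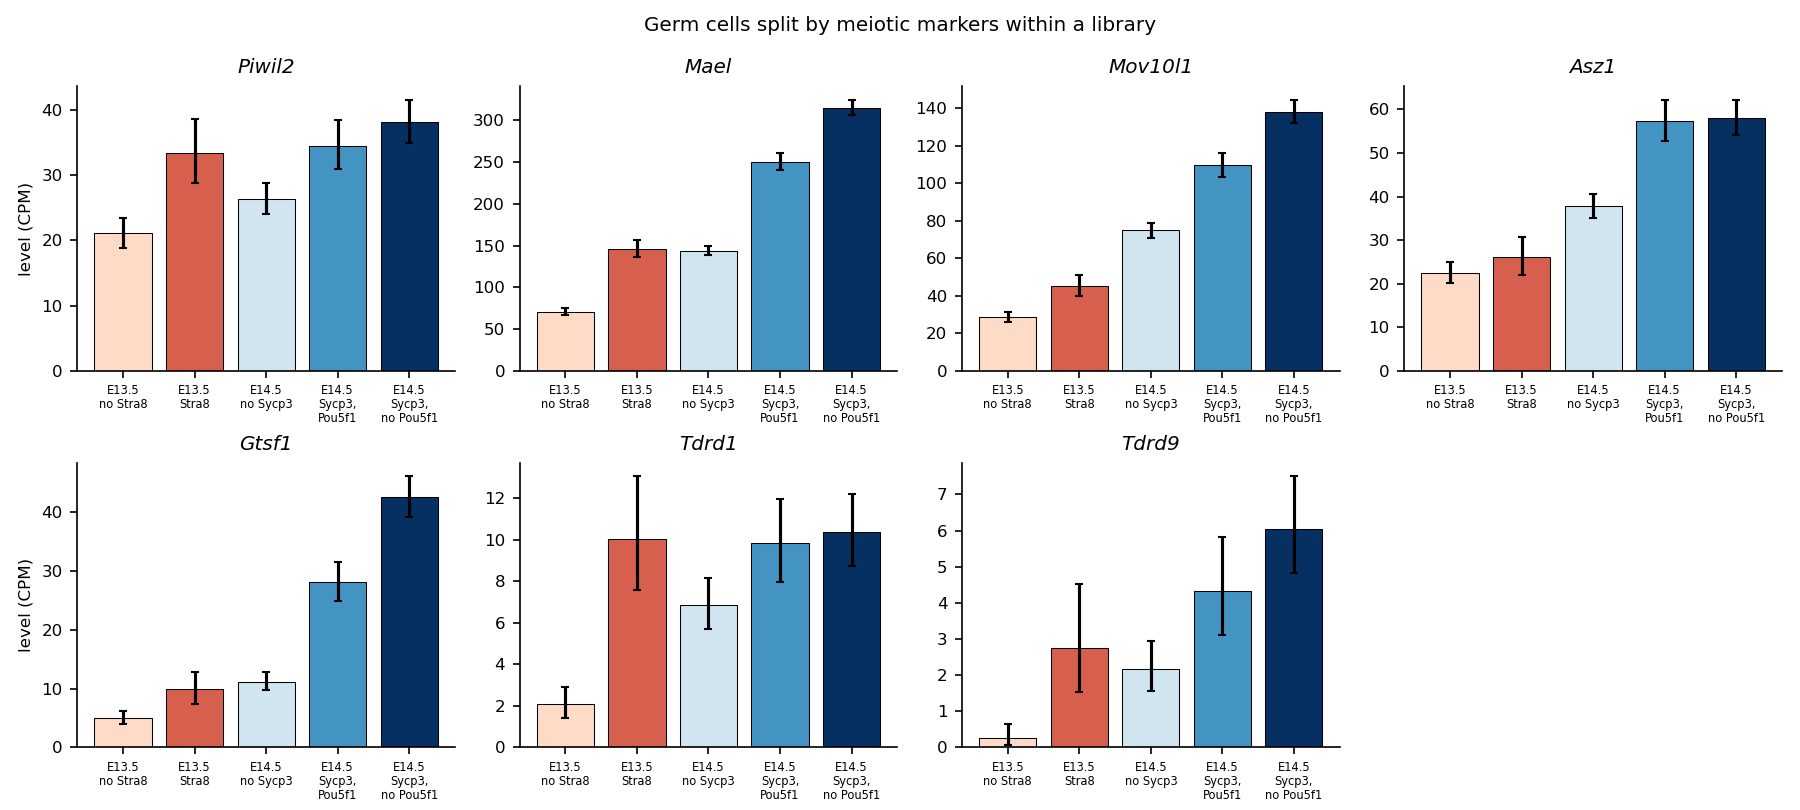
Level of each gene in CPM in germ cells of E13.5 split by a Stra8 UMI and of E14.5 split by Sycp3 and Pou5f1 UMIs, with 95% Poisson intervals; each panel has its own axis from 0. Gtsf1 goes from 11.2 to 42.5 CPM across the E14.5 classes, and Tdrd1 is at 10.0 CPM in the Stra8 cells of E13.5 against 2.08 without Stra8.

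Some members also rose among the germ cells in which no Stra8 was detected. Such cells had 15.8 CPM of Mael at E11.5, 70.6 CPM at E13.5 and 91.1 CPM in the E14.5 library. From E11.5 to E13.5, Mael (log2 2.16) and Mov10l1 (1.12) were counted higher, 2 of 4 members tested against 2.77% of all genes, Mov10l1 standing just under 2-fold on the median-of-ratios scale. Every member was under 20 CPM in the E11.5 cells, so the minimum was met through E13.5 alone and none could have been counted lower. Nothing is read from this count against that share. From E13.5 to E14.5, 0 of 4 were counted, against 2.23%. In that step 6 of the 7 members had a ratio above 1, among them Mov10l1, which went from 28.9 to 54.3 CPM. Piwil2 went from 21.1 to 16.2 CPM. Cells with exactly 2 markers were 39.4%, 19.2% and 30.8% of the cells without Stra8 at E11.5, E13.5 and E14.5. The part of that changing mix in these ratios was not tested. Stra8 itself was at 27.5 and 82.4 CPM in these classes of E13.5 and E14.5 before thinning, so they were low in Stra8 and not free of it.

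Outside germ cells the members were low. In other cells Piwil2, Mael, Mov10l1, Asz1 and Gtsf1 stood at 0.502% to 2.95% of their germ cell CPM wherever a UMI was seen. Pou5f1, which somatic cells should lack, stood at 0.751%, 0.615%, 0.976% and 1.80% over the 4 stages, and Stra8 at 1.43% at E14.5. Mael stood below Pou5f1 at E11.5 and E12.5 (0.662% and 0.521%) and slightly above it at E13.5 and E14.5 (1.03% and 1.90%). Mov10l1 stood above it at E11.5 (1.02%) and below it at the later stages (0.502%, 0.863% and 1.39%). Piwil2 stood above it at each stage (1.82%, 1.34%, 2.08% and 2.68%). Asz1 stood above Pou5f1 in the 3 earlier libraries (2.95%, 0.892% and 1.13%), and Gtsf1 in those of E12.5 (1.05%) and E13.5 (2.10%). Of the 8 germ cell genes not used by the rule, Nanog reached 3.02% and 8.28% in the last pair of libraries, from 35 and 16 UMIs in other cells. The others stood at 2.21% or less wherever they had a value, below Piwil2 at E14.5 and Asz1 at E11.5. From these shares, which pool all other cells, Piwil2, Mael, Mov10l1, Asz1 and Gtsf1 cannot be said to be expressed outside germ cells. Droplets also carry free RNA, and its part in these shares was not tested. Mael in other cells had 0.105, 0.183, 0.923 and 4.26 CPM, going up with its germ cell level. A thinned Mael UMI was seen in 2.12% of other cells at E14.5, beside 6.32% for Stra8, with median depths of 10245 UMIs in other cells and 15465 in germ cells. Gtsf1 had 0 UMIs in the other cells of E11.5, and germ cells were 76.6-fold higher when set against 3 UMIs. The counting interval of the log2 ratio itself began at 5.88, which is below that fold. Of 2169 other cells at E14.5, 6 held at least 3 of Stra8, Sycp1, Sycp3 and Smc1b, and these held 33 of the 231 member UMIs of other cells. Without them Mael stood at 1.70% of its germ cell level in place of 1.90%. Summed over the 7 genes, other cells with at least 3 markers of the supporting lineage alone had 2.04, 2.12, 2.95 and 8.15 CPM, and those with interstitial markers alone had 1.47, 1.58, 2.64 and 7.09. The same sum went from 2.95 to 8.15 CPM between E13.5 and E14.5 in the supporting class, from 3.66 to 7.99 with mesothelial markers, from 1.08 to 8.97 with erythroid markers, from 3.14 to 7.53 with markers of several types and from 1.98 to 18.2 with those of none. The intervals of these stages overlapped for the interstitial and mesothelial classes, and the endothelial and immune classes had 0 member UMIs in their 14 and 4 cells of E14.5. The make-up of the classes differed too, the supporting class going from 1156 to 190 cells. At least 3 erythroid markers were detected in 26.5% of other cells with 0 rule markers at E13.5 and in 67.0% at E14.5. At E14.5 the class of several types held 1399 cells, and that of none 62 cells with 23 member UMIs. The part of this make-up in the sums was not tested.

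Tdrd1 and Tdrd9 were different. Tdrd1 had 0.449, 0.805, 0.439 and 0.358 CPM in other cells, with no upward course, which was 45.7%, 57.9%, 10.7% and 4.12% of the germ cell level. Tdrd9 had 0.284 CPM in other cells and 0.196 in germ cells at E11.5, and the log2 ratio of germ to other cells was -0.53 (-3.68 to 1.52). By E14.5 the ratios were 4.60 (3.70 to 5.67) for Tdrd1 and 4.78 (3.39 to 6.67) for Tdrd9.

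**Figure D5:**
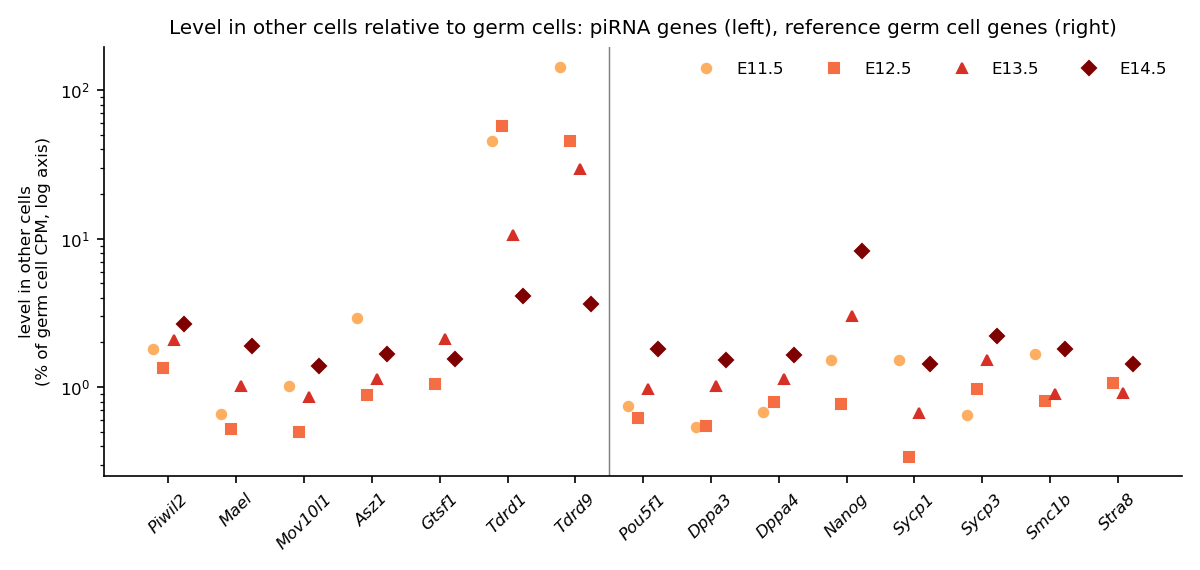
Level of each gene in other cells as a percent of its level in germ cells (log axis) at each stage, for the 7 piRNA genes (left of the line) and 8 germ cell genes not used by the rule (right); a gene with 0 UMIs in either class has no point. Tdrd1 and Tdrd9 start at 45.7% and 145% at E11.5 and reach 4.12% and 3.65% at E14.5, while Mael stays between 0.521% and 1.90%.

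Counted by the same rule, germ cells were higher than other cells for 3 of 3 members tested in the E12.5 library (13.1% of all genes), for 4 of 4 in that of E13.5 (15.3%) and for 5 of 5 in that of E14.5 (16.2%). No member exceeded 4.26 CPM in other cells, so a member met the 20 CPM minimum only through the germ cells, and these counts were fixed by it. For the same reason 0 members could be lower, where 26.3%, 24.9% and 22.7% of all genes were. In the E11.5 library no member reached the minimum, and 9.65% of all genes were counted higher and 26.0% lower. The ratios themselves are the result here. The log2 ratios of Mael in the 3 later libraries were 7.58 (6.70 to 8.65), 6.61 (6.17 to 7.09) and 5.72 (5.46 to 5.99), since its level in other cells went up by a larger factor than that in germ cells. On the median-of-ratios scale the whole-table split moved from 581 higher and 1565 lower to 1224 and 972 at E11.5, from 828 and 1657 to 1509 and 1176 at E12.5, and from 982 and 1602 to 1486 and 1260 at E13.5, with the same member calls.

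Beyond the members, a list of 29 further genes was read, of which 27 were in the table and 26 remained without Ddx4. Besides pathway genes it held relatives of them, such as Gtsf1l, Mov10 and Mybl2. A change on this list is therefore not always a change of the pathway. Between the first and the last stage, 14 of the 26 met the minimums. Of these, 8 rose and 3 fell, where 19.0% and 8.29% of all genes tested did. Tex15, Gpat2, Rnf17, Tdrd7 and Tdrd5 met the 20 CPM minimum through E14.5 alone and could not have been counted lower. Gtsf1l and Morc1 met it through E11.5 alone and could not have been counted higher. Nothing is therefore read from these counts against those shares. The median log2 ratio of the 22 with a value, with no minimum applied, was 1.49, beside 0.22 over the genes tested. Those that rose were Stk31, a Tudor-domain protein with a kinase-like part (33.6 to 478 CPM), Tex15, a nuclear effector of piRNA silencing (13 to 172.5), Gpat2, a mitochondrial membrane partner of Piwil2 (8.84 to 85.3), Rnf17 (15.9 to 102), Tdrkh, a mitochondrial Tudor protein that helps trim piRNAs (26.3 to 84.6), the co-chaperone Fkbp6 (139 to 343), Tdrd7 (0.786 to 20.1) and Tdrd5 (9.82 to 21.6), the last at a log2 change of 1.13 that became 0.85, under 2-fold, on the median-of-ratios scale. Those that fell were Gtsf1l (41.0 to 3.16 CPM), Morc1, a chromatin factor in transposon silencing (36.9 to 7.35), and Mybl2, a cell-cycle transcription factor (134 to 51.6). Rnf17 went up, down and up like Asz1, with 15.9, 55.1, 28.7 and 102 CPM. By step, 2 of 12 list genes were higher in the first step (Rnf17 and Stk31), against 1.95% of all genes, 0 of 13 in the next, against 0.768%, and 5 of 13 in the last (Tdrd7, Rnf17, Tex15, Gpat2 and Stk31), against 7.29%. Rnf17 in the first step and Tdrd7 in the last met the 20 CPM minimum through the later stage alone. Lower were Gtsf1l alone in the middle step, against 0.403%, and Morc1 and Mybl2 in the last, against 2.01%. In those steps Gtsf1l and Morc1 met the minimum through the earlier stage alone. On the median-of-ratios scale 3 list genes were lower in the middle step, Gtsf1l (log2 -1.52), Rnf17 (-1.07) and Morc1 (-1.04). The other PIWI genes stayed low in germ cells, Piwil1 at 0.491 to 2.85 CPM and Piwil4 at 0.295 to 2.83. Ddx4, one of the rule's own genes, had 38.2, 85.3, 125 and 214 CPM.

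For each member the genes with the most similar course were taken by Euclidean distance between centred log2(CPM + 5) values over the 8 class-by-stage sums, among 7338 genes. Mael was closest to Tuba3a (distance 0.38), which had 22.3, 38.9, 90.4 and 261 CPM in germ cells, then to Map7d2 (0.96) and Slc25a31 (1.00). Mov10l1 was closest to the meiotic cohesin gene Stag3 (0.32), Cdkn2a (0.37) and Hsf2bp (0.44). Piwil2 was closest to Slc22a18 (0.24), Entpd2 (0.32) and Taf4b (0.33), and Gtsf1 to Xlr3c (0.19), Tex19.2 (0.28) and Macrod2 (0.41). Asz1 was closest to Rec114 (0.47), Tdrkh (0.52), which is on the wider pathway list, and Siah1b (0.53). Tdrd1 (Ptpn12, Zfp142 and Klhl15) and Tdrd9 (Snx12, Lage3 and Trappc12) were so low that the added 5 CPM sets most of their course. No member was among the 3 closest genes of another: the nearest pair was Tdrd1 with Tdrd9 (0.64), and among the better counted ones Piwil2 with Asz1 (0.80).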

How the data were processed

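Gonad cells of 4 stages, 1 library each (10x Chromium 3′ kit, version 2), were aligned and counted with Cell Ranger 2.2.0 on mm10, per the submitters' processing notes. The deposited table holds, as its values show, the natural log of 1 plus UMIs scaled to 10000 per cell. Whole UMIs were recovered by dividing each cell's back-transformed values by their lowest: 100% of 69792436 values above 0 were whole at a relative tolerance of 1e-06. The plan had assumed deposited counts, and the recovered counts took their place. Cells with fewer than 200 genes or over 20% mitochondrial UMIs, and doublets called by Scanpy 1.11.5 (scrublet, expected rate 0.06), at 1.96% to 2.30% per library, were left out. The kept libraries held 66872536 to 77022118 UMIs in 4693 to 4800 cells. Of 19208 barcodes, 175 occurred in more than 1 library.

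UMIs were summed by class and stage, with exact Poisson intervals for levels, exact binomial intervals for ratios and Clopper-Pearson intervals for shares. No test between stages was run, since a stage is 1 library. The members and lists were chosen with earlier results of these data known. Named genes were the members, list genes counted as changed in any stage comparison with Piwil1, Piwil4 and Ddx4, and the 3 closest genes of each member. Alternatives are given at the end. The comparisons with 3 markers of the meiotic classes, among Stra8-negative cells between stages and by number of markers, the other thinning draw, the removal of 6 other cells and the windows around E-boxes were chosen after seeing the data.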

Additional observations from a re-analysis of the deposited data

How the results depend on the processing

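No paired analysis was possible because the labels give no replicate numbers and each stage is 1 library, so no library could be left out either. Of 858 single-gene values set against an alternative, 633 stayed within their counting interval, 224 moved outside it and 1 reversed: Gtsf1 from E11.5 to E12.5, at -0.30 in log2 with all 4 markers. Keeping doublets, taking cells of at least 10000 UMIs, leaving out cells with erythroid markers and leaving Ddx4 out of the rule moved no count of members by over 1.5 times. The number of members counted higher from E11.5 to E12.5 was 2, and became 1 with 3 markers, 0 with all 4, 0 with markers after thinning and 0 at a ratio of 4. From E12.5 to E13.5 it was 1, and became 0 at a ratio of 4 and 3 with no minimum. From E13.5 to E14.5 it was 4, and became 1 with all 4 markers and 1 at a ratio of 4. From E11.5 to E14.5 it was 5, and became 3 at a ratio of 4. For the wider list the 8 higher genes became 5 at a ratio of 4 and 15 with no minimum, and the 3 lower became 5 on the median-of-ratios scale. For germ against other cells the count of 0 at E11.5 became 1 with 3 markers, with all 4 and with markers after thinning, and the count of 5 at E14.5 became 2 with all 4. In the meiotic classes the count for Stra8 at E13.5 went from 1 to 0 with 3 and with 4 markers; for Stra8 at E14.5 from 4 to 2 with 3 markers, 1 with 4 and 2 after thinning to 2000 UMIs. For Sycp3 without Pou5f1 it went from 2 to 1 with 3 markers, 1 with 4, 1 after thinning to 2000 and 4 with classes from all UMIs, and for Sycp3 with Pou5f1 from 1 to 0 with 4 markers, 0 after thinning to 2000 and 2 from all UMIs. Cells holding 3 or more members made up 16.4%, 37.5%, 42.7% and 68.9% of germ cells over the stages without thinning, and 0.134%, 0.230% and 2.89% from E12.5 on at 2000 UMIs. They made up 14.2% at E14.5 with all 4 markers, and 1.88% at E12.5 in another thinning draw. The cause of these shifts was not tested. Fewer than 20 UMIs underlie Tdrd1 at E11.5 and Tdrd9 up to E13.5, so depth limits what can be said of them.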

Other observations

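In 3 pairs of related genes, the germ cell levels went opposite ways between E11.5 and E14.5. The pairs came from the members and the wider list and were picked after their values were seen. Gtsf1 went from 3.44 to 25.3 CPM while Gtsf1l, a gene of the same zinc-finger family, went from 41.0 through 27.5 and 10.5 to 3.16. The log2 changes were 2.88 (2.39 to 3.41) and -3.70 (-3.99 to -3.41), and among germ cells with at least 3 markers they were 2.47 and -3.79. Mov10l1 went from 13.3 to 103 CPM while the related helicase Mov10 went from 46.4 through 38.7 and 32.7 to 23.6, a log2 change of -0.98 (-1.14 to -0.81) that was under 2-fold, and of -1.26 on the median-of-ratios scale. Mov10 was at 33.7 to 38.7 CPM in other cells, where Mov10l1 was near 0. Mybl1, a MYB factor that drives piRNA precursor genes in the testis, went from 2.55 to 16.9 CPM while Mybl2 went from 134 to 51.6, log2 changes of 2.73 (2.17 to 3.35) and -1.38 (-1.48 to -1.28). The directions held on the median-of-ratios scale and with at least 3 markers for all 6 genes.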
